A study of Caenorhabditis elegans with 14 samples.

Results

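Many genes of *Caenorhabditis elegans* carry the name of the genomic clone on which they were first predicted, such as *F54F7.2*. The deposited annotation gives such genes no other symbol. The genes described here are 74 such clone-named genes whose transcripts were lower in *anc-1* RNAi worms than in control worms of both strains that were sequenced. They were taken from 11751 genes listed for both strains, of which 5547 had a clone name. A member had a mean normalized value of at least 10 in the control worms of each strain, a mean log2(value + 1) at least 0.7 below the control mean in each strain, and every *anc-1* RNAi sample below every control sample in each strain. Genes annotated to innate immune response, autophagy or splicing were left out. The members were thus chosen by their measured normalized values under *anc-1* RNAi and EV, and that response is given below as a description, without a test.

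ANC-1 is a giant nesprin of the outer nuclear membrane. With a SUN protein of the inner membrane it forms the LINC complex, which ties the nucleoskeleton to the cytoskeleton and anchors nuclei in the large syncytial cells of the worm. In whole worms the RNA comes from the body tissues, from the germline and from embryos held in the uterus. A gene without a symbol had not been named in the deposited annotation for a mutant phenotype, homology or family, so its sequence name says only where it lies. Of the members, 5 have a symbol in the newer annotation used here.

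The 4 groups were wild-type (N2) worms on *anc-1* RNAi (n = 3), wild-type worms on the empty vector (EV, n = 3), polyQ35-YFP worms on *anc-1* RNAi (n = 4) and polyQ35-YFP worms on EV (n = 4). The polyQ35-YFP strain AM140 expresses 35 glutamines fused to YFP from the *unc-54* promoter, which is active in body wall muscle, and it is 1 transgenic line. All worms were hermaphrodites kept at 20 °C on HT115 bacteria, had their progeny washed away daily and were collected on day 6 of adulthood, and each sample was an RNA extract of a whole population. The RNA was read with CEL-Seq2, which sequences the polyadenylated end of transcripts, so a value counts transcript ends and is not divided by gene length. The values are reads divided by the size factor of the sample, scaled separately for each strain, and levels were compared only within a strain.

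Reads on listed genes numbered 4934531 to 7227357 in wild-type *anc-1* RNAi samples and 5694086 to 10513485 in wild-type EV samples, and 5718349 to 8414290 in polyQ35-YFP *anc-1* RNAi samples and 5905938 to 11563506 in polyQ35-YFP EV samples. The target *anc-1* had normalized values of 45.5, 68.4 and 39.6 in wild-type *anc-1* RNAi samples, against 291, 306 and 349 in wild-type EV samples. In polyQ35-YFP worms it had 50.8, 25.6, 48.7 and 24.8 under *anc-1* RNAi, against 409, 329, 352 and 295 under EV. Markers of intestine, body wall muscle, epidermis and neurons were present in every group, while only 2 and 3 of 12 sperm markers were listed in wild-type and polyQ35-YFP worms. EV replicates 3 and 4 of polyQ35-YFP worms stood apart for the members, in opposite directions, as described further on. Main counts are therefore also given without each of them. The molecular identifiers were not used in the counting, so precision from read numbers covers counting error only.

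In wild-type worms the members had a median log2 fold change (*anc-1* RNAi over EV) of -1.13, with single genes between -3.52 and -0.72, beside 0.00 over all listed genes. In polyQ35-YFP worms the median was -1.23, between -2.78 and -0.70, beside 0.03 over all listed genes. The *anc-1* RNAi mean was at or below 50% of the EV mean for 47 members in wild-type worms and for 54 in polyQ35-YFP worms, and at or below 25% for 8 and 7. The median member retained 45.4% of its EV mean in wild-type worms and 40.7% in polyQ35-YFP worms. The members were spread over the range of expression: their EV means ran from 12.6 to 4794 in wild-type worms (median 98.8, beside 101 for the 3934 eligible clone-named genes) and from 11.7 to 5583 in polyQ35-YFP worms (median 113, beside 114).

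Genes were also fitted one by one with limma over each whole table, and a gene was called at a Benjamini-Hochberg adjusted p below 0.05. In wild-type worms 71 members were called lower, where 6.13% of all genes were. In polyQ35-YFP worms 51 were, where 1.47% of all genes were. By the rule, all 74 had every *anc-1* RNAi sample below every EV sample, which 15.8% of all genes met in wild-type worms and 5.94% in polyQ35-YFP worms. Since the rule used these samples, nothing is read from these counts beyond how many members the fit could resolve. Both strains called 48 members, wild-type worms alone 23 and polyQ35-YFP worms alone 3 (*F40G9.18*, *F14B6.3* and *Y106G6D.1*). With same-numbered samples taken as pairs, 71 members were called lower in each strain (beside 7.44% of all wild-type and 4.30% of all polyQ35-YFP genes), and 68 in both. Without polyQ35-YFP EV replicate 4, 71 members were called lower in that strain, beside 4.39% of all genes, and the median log2 fold change of the members was -1.41. Without EV replicate 3 that median was -1.08.

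The polyQ35-YFP count was unstable. Library-size scaling gave 32. Dropping *anc-1* RNAi replicate 1 gave 14, replicate 2 gave 22 and replicate 3 gave 25, and dropping EV replicate 2 gave 23 and EV replicate 3 gave 27. Without the variance trend limma called 39 members in wild-type worms and 4 in the polyQ35-YFP strain.

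**Figure D1:**
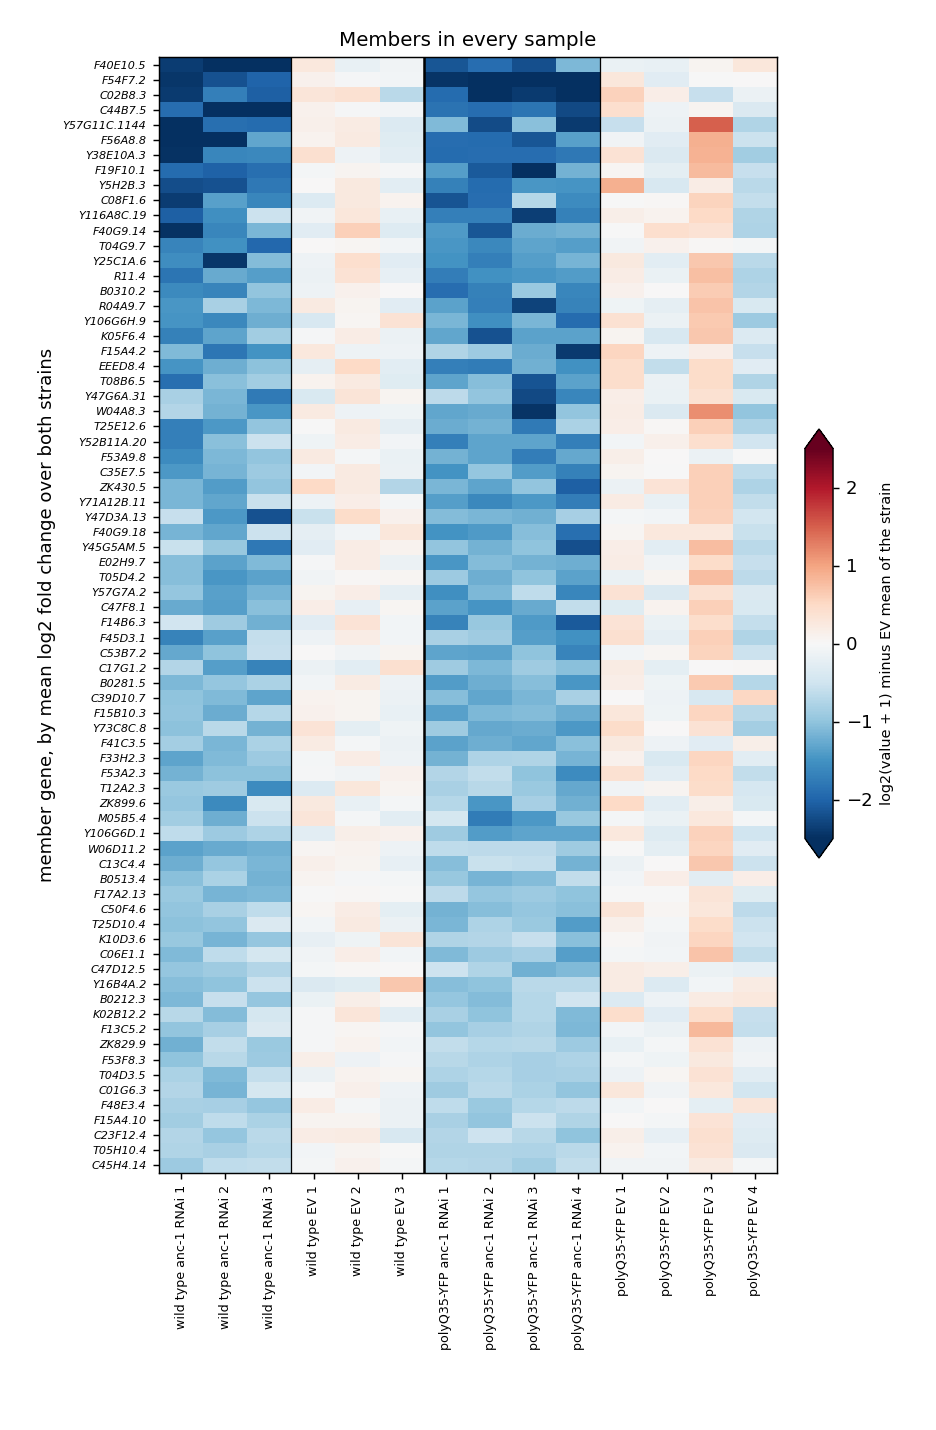
All 74 members (rows, ordered by mean change) in all 14 samples (columns, *anc-1* RNAi left of EV in each strain). Colour is log2(value + 1) minus the EV mean of the strain, cut at 2.5 in either direction, and every *anc-1* RNAi sample lies below every EV sample of its strain, while EV replicate 3 is the reddest and EV replicate 4 the bluest EV column of polyQ35-YFP worms.

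Of the 12 members with the largest mean change, 7 had no GO term, about the share in the whole list. *F40E10.5* (WBGene00009573, chromosome X, 14701791 to 14703684, WBcel235, a predicted protein of 284 residues) had values of 2.27, 0 and 0 in wild-type *anc-1* RNAi samples, against 19.5, 13.9 and 14.97 in wild-type EV samples. The polyQ35-YFP samples had 2.82, 3.497, 2.63 and 6.66 under *anc-1* RNAi, against 13.9, 13.8, 16.6 and 19.3 under EV. At most 2 reads stood behind each wild-type *anc-1* RNAi value, so the log2 fold change of -3.52 there has a standard error of 0.59, and the one in polyQ35-YFP worms was -1.84 (standard error 0.38). This gene was close to undetected in wild-type knockdown worms, whereas all 4 polyQ35-YFP knockdown samples held 2 to 7 reads, 24.6% of the EV mean, and the controls were low but even.

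*F54F7.2* (WBGene00010064, chromosome X, 11843661 to 11845339, 322 residues) had values of 14.8, 17.8 and 20.4 in wild-type *anc-1* RNAi samples, against 90.6, 82.4 and 80.2 under EV, a log2 fold change of -2.20 (standard error 0.24). The polyQ35-YFP samples had 25.4, 13.99, 23.7 and 19.04 under *anc-1* RNAi, against 175, 118, 142 and 144 under EV, a log2 fold change of -2.78 (standard error 0.24). Its groups were far apart in both strains, and of all members it retained the smallest share of its EV mean in polyQ35-YFP worms, 14.2%. *C02B8.3* (WBGene00015322, chromosome X, 8139522 to 8140233), another unannotated gene, had 6.82, 11.5 and 8.93 in wild-type *anc-1* RNAi samples, against 49.3, 52.7 and 24.6 under EV. In polyQ35-YFP worms its values were 16.9, 5.83, 11.8 and 7.62 under *anc-1* RNAi, against 99.7, 74.6, 44.3 and 60.3 under EV. These 3 genes lie far apart on chromosome X.

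*C44B7.5* (WBGene00016627, chromosome II, 6871376 to 6872593), annotated only as extracellular, had the highest values among the 12 steepest changes. They were 194, 128 and 123 in wild-type *anc-1* RNAi samples, against 779, 714 and 689 under EV (log2 fold change -2.32, standard error 0.16). In polyQ35-YFP worms they were 192, 183, 192 and 143 under *anc-1* RNAi, against 920.4, 631, 718 and 536 under EV (-1.96, standard error 0.18). In wild-type worms the spread within each group was small beside the gap between the groups. The polyQ35-YFP EV samples ranged more widely than the gap in that strain.

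Several other genes among the 12 were thinly covered. The gene with the identifier WBGene00219443 (chromosome IV, 14937510 to 14937793), a predicted peptide of 73 residues, had 0, 2.66 and 2.55 in wild-type *anc-1* RNAi samples, against 13.8, 14.5 and 9.62 under EV. Under *anc-1* RNAi polyQ35-YFP worms had 3.76, 1.17, 3.95 and 0.952, against 5.796, 8.15, 27.7 and 5.03 under EV, so its EV mean rested mostly on replicate 3 and it was not called there. *F56A8.8*, *Y38E10A.3*, *Y5H2B.3*, *C08F1.6* and *F40G9.14* were called in each strain. Their log2 fold changes ran from -2.20 to -1.75 (wild type) and from -1.88 to -1.49 (polyQ35-YFP). *C08F1.6* is annotated to the membrane and *F40G9.14* to zinc ion binding, and the others have no annotation.

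**Figure D2:**
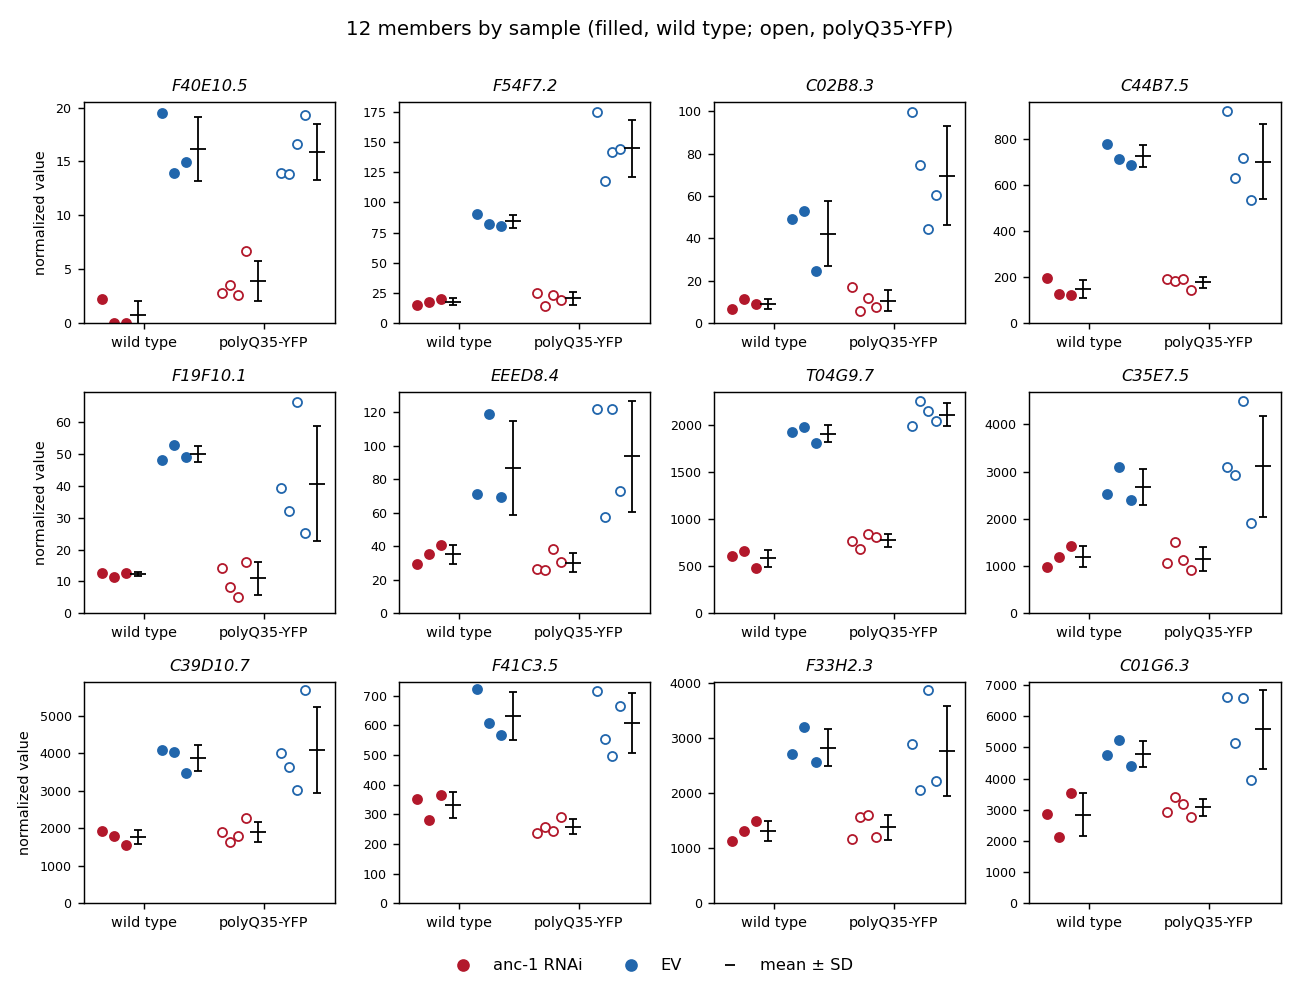
Normalized values of 12 members in every sample, with the mean and SD beside the points (n = 3 per wild-type group, n = 4 per polyQ35-YFP group), *anc-1* RNAi left of EV. No group overlaps its control, and the EV spread of *F19F10.1*, *EEED8.4*, *C35E7.5* and *F33H2.3* is wide in polyQ35-YFP worms, while that of *T04G9.7* is narrow in both strains.

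Of the 74 members, 31 had at least 1 GO term. The share without any, 58.1% (43 genes), was above the 40.5% among the 3934 eligible clone-named genes. Genes annotated to metabolism made up 6.76% of members, beside 16.98% of eligible genes, and those annotated to membrane or transport 14.9%, beside 25.3%. Genes of ubiquitin and proteolysis made up 8.11%, beside 3.63%. These shares describe the list and were not tested. Calls within a group, given below, stand beside 71 of all 74 members called lower in wild-type worms and 51 in polyQ35-YFP worms. Of all genes, 6.13% and 1.47% were. The rule used the same samples, so nothing is read from these calls about any group.

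Among nucleus, chromatin and DNA genes (7 members, all called lower in wild-type worms and 6 in the other strain), the one of highest value was *F33H2.3* (WBGene00009367, chromosome I, 15034517 to 15035467), which encodes an acidic leucine-rich nuclear phosphoprotein of a family that binds histones. It had 1134, 1317 and 1494 in wild-type *anc-1* RNAi samples, against 2717, 3213 and 2565 under EV (log2 fold change -1.11, standard error 0.12). PolyQ35-YFP worms had 1174, 1569, 1597 and 1202 under *anc-1* RNAi, against 2900.3, 2064, 3881 and 2228 under EV (-0.97, standard error 0.19). *F33H2.3* was at about the same share of its EV mean in both strains, 46.4% and 50.1%.

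*F19F10.1* (WBGene00017598, chromosome V, 7562714 to 7564245), annotated as a sequence-specific DNA-binding protein that lowers transcription by RNA polymerase II, had 12.5, 11.5 and 12.8 in wild-type *anc-1* RNAi samples, against 48.2, 52.7 and 49.2 under EV. PolyQ35-YFP worms had 14.1, 8.16, 5.27 and 16.2 under *anc-1* RNAi, against 39.4, 32.0, 66.4 and 25.1 under EV. The 3 wild-type replicates of each group lay close together, whereas the polyQ35-YFP EV values spread widely. The study had already listed *F19F10.1* among transcription factors regulated by *anc-1* RNAi.

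The 3 members of the RNA group were called lower in both strains, as were 48 of all 74 members. A gene could be in several groups. *EEED8.4* and *T08B6.5* of this group also counted as nucleus, chromatin and DNA genes, only by the term nucleic acid binding. *EEED8.4*, a putative RNA-binding protein, had 29.5, 35.5 and 40.8 in wild-type *anc-1* RNAi samples, against 71.1, 119 and 69.5 under EV, and 26.3, 25.6, 38.2 and 30.5 in polyQ35-YFP *anc-1* RNAi samples, against 122, 57.7, 122 and 72.9 under EV. *T08B6.5* (*sgnh-1* in the annotation used here), also annotated to RNA binding, had log2 fold changes of -1.26 (wild type, standard error 0.24) and -1.47 (polyQ35-YFP, standard error 0.30). *Y116A8C.19*, annotated to bind the 3′ untranslated region of mRNAs and to destabilize them, had 3.41, 5.33 and 11.5 in wild-type *anc-1* RNAi samples, against 16.1, 21.2 and 14.97 under EV. In polyQ35-YFP worms its values were 4.70, 4.66, 2.63 and 4.76 under *anc-1* RNAi, against 19.7, 18.8, 25.5 and 10.06 under EV.

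All 6 members of the ubiquitin and proteolysis group were called lower in wild-type worms, beside 71 of all 74 members. Of the 6, 2 were also called in the other strain, both serine proteases, beside 51 of all 74 members. *F48E3.4* (*try-14* in the annotation used here, chromosome X), a serine endopeptidase, had 1186, 1179 and 1059 in wild-type *anc-1* RNAi samples, against 2368, 2027 and 1887 under EV, and 1276, 1046, 1218 and 1267 in polyQ35-YFP *anc-1* RNAi samples, against 1906, 2006, 1677 and 2455 under EV. *F41C3.5* (*ctsa-1.1* in the annotation used here, chromosome II), a serine carboxypeptidase, had 350.0, 282 and 364 in wild-type *anc-1* RNAi samples, against 720.4, 606 and 567 under EV, and 237, 259, 244 and 292 in polyQ35-YFP *anc-1* RNAi samples, against 716, 554, 496 and 664 under EV. In wild-type worms the range of both proteases within groups was smaller than the gap between the groups. In polyQ35-YFP worms their EV samples ranged more widely than that gap, and their values in EV replicate 4 were among the higher ones.

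The remaining members of that group were *Y47G6A.31* and *Y73C8C.8*, annotated to ubiquitin ligase activity, the carboxypeptidase *Y16B4A.2*, and *ZK430.5*. *ZK430.5* is annotated to cysteine endopeptidase activity and meiotic chromosome separation, and it was the sole member of the embryo and reproduction and of the cell division groups. It had 18.2, 15.1 and 20.4 in wild-type *anc-1* RNAi samples, against 58.5, 48.5 and 24.6 under EV, and 18.8, 16.3, 21.1 and 9.52 in polyQ35-YFP *anc-1* RNAi samples, against 38.3, 53.9, 64.2 and 24.3 under EV. It was called in wild-type worms only.

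*C39D10.7* (WBGene00016534, chromosome X, 7907955 to 7913932), annotated as an extracellular chitin-binding protein of 1171 residues, was among the members of highest value. It had 1921, 1800.5 and 1557 in wild-type *anc-1* RNAi samples, against 4102, 4049.6 and 3479 under EV (log2 fold change -1.14, standard error 0.10). PolyQ35-YFP worms had 1900.5, 1624, 1801 and 2270.4 under *anc-1* RNAi, against 4014, 3633, 3029 and 5691 under EV (-1.08, standard error 0.18). Chitin is a building block of the worm eggshell and of the lining of the pharynx.

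Among kinases and phosphatases (3 members), *T25D10.4* is annotated to phosphoglycerate kinase activity, a step of glycolysis, and had log2 fold changes of -0.79 (wild type, standard error 0.16) and -1.06 (polyQ35-YFP, standard error 0.20), called in both. *C13C4.4* (*lhpp-1* in the annotation used here), annotated to phosphohistidine phosphatase activity, had -1.11 (standard error 0.16) and -0.85 (standard error 0.25), called in wild-type worms only. *R04A9.7*, annotated to ribosomal protein S6 kinase activity, had -1.13 (standard error 0.22) and -1.75 (standard error 0.28), called in both. Among the 11 members annotated to membrane or transport, wild-type worms had 10 calls and the polyQ35-YFP strain 8, and *C47D12.5*, an integral membrane protein, had -0.86 (standard error 0.11) and -0.90 (standard error 0.17).

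Of the 43 members with no GO term, wild-type worms called 41 lower and the polyQ35-YFP strain 27, and some had high values. *C01G6.3* (WBGene00007225, chromosome II, 9269894 to 9271271) had 2882, 2131 and 3534 in wild-type *anc-1* RNAi samples, against 4753, 5226 and 4402 under EV, and 2944, 3423, 3177 and 2773 in polyQ35-YFP *anc-1* RNAi samples, against 6614, 5157, 6591 and 3967 under EV. *C35E7.5* (WBGene00016457, chromosome I, 10823358 to 10828454), a predicted protein of 1262 residues, had 985, 1189 and 1426 in wild-type *anc-1* RNAi samples, against 2534, 3101 and 2397 under EV. PolyQ35-YFP worms had 1060.2, 1514, 1124 and 921 under *anc-1* RNAi, against 3107, 2940.4, 4505 and 1911 under EV. The gap between the groups was thus narrow in polyQ35-YFP worms, where the lowest EV sample was replicate 4.

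*T04G9.7* (WBGene00020218, chromosome X, 770835 to 771969, 131 residues) had 606, 662 and 484 in wild-type *anc-1* RNAi samples, against 1926, 1977 and 1803 under EV (log2 fold change -1.71, standard error 0.12). PolyQ35-YFP worms had 764, 685, 845 and 806 under *anc-1* RNAi, against 1982, 2256, 2149 and 2042 under EV (-1.44, standard error 0.12). Its EV samples were even in both strains. *B0513.4* (chromosome IV, 120 residues) was at -1.003 (standard error 0.12) and -0.95 (standard error 0.16), and *F13C5.2* (chromosome X) at -0.72 (standard error 0.13) and -0.92 (standard error 0.23). The call of *F13C5.2* was made in wild-type worms only.

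The members had simple gene models. Their median coding length was 241 residues, beside 312 for the eligible clone-named genes, and 39.2% encoded fewer than 200 residues, beside 28.2%. The shortest prediction had 45 residues (*Y52B11A.20*) and the longest 2161 (*Y16B4A.2*). The median number of exons was 3, beside 5, and 85.1% had a single annotated transcript, beside 62.3%. Chromosome X held 18 members (24.3%, beside 13.96% of eligible genes) and chromosome IV held 7 (9.46%, beside 16.4%), while I, II, III and V held 14, 16, 9 and 10.

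The members were scattered along the chromosomes. Only *F40G9.18* and *F40G9.14* on chromosome III had starts within 20000 bases of each other, 8259 bases apart on the same strand. *F40G9.18*, annotated to the membrane, had 7.96, 7.10 and 12.8 in wild-type *anc-1* RNAi samples, against 16.1, 18.2 and 23.5 under EV, and 6.58, 6.99, 9.22 and 4.76 in polyQ35-YFP *anc-1* RNAi samples, against 20.9, 24.5, 24.4 and 13.4 under EV. These neighbours are low genes, with at most 13 reads in any *anc-1* RNAi sample.

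A protein-coding gene on the opposite strand overlapped 10 members. The sources used here do not say if reads were counted by strand, so it is not known if reads of these partners entered the values of the members. Partners were listed for 7 of these members in at least 1 strain (*set-25* for *F56A8.8*, *mis-12* for *Y47G6A.31*, *Y52B11A.12* for *Y52B11A.20*, *nhr-136* for *C13C4.4*, *C06E1.9* for *C06E1.1*, *unc-22* for *ZK829.9* and *C01G6.4* for *C01G6.3*), and none of these partners was called lower in either strain. *set-25* had log2 fold changes of -0.24 (wild type) and -0.10 (polyQ35-YFP), and *C01G6.4* -0.10 and -0.14. Others lay further in the direction of the members, *mis-12* with -0.34 and -0.28, *Y52B11A.12* with -0.36 and -0.53 and *nhr-136* with -0.71 in polyQ35-YFP worms, where alone it was listed. *C06E1.9* had 0.24 and 0.21, and *unc-22* had 0.65 and -0.36. The partners of *F13C5.2*, *F53F8.3* and *T04D3.5* were not listed. *C50F4.6* overlapped the histone gene *his-41* on the same strand, which had log2 fold changes of 0.35 and 0.06.

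The strains were next compared for the size of the response. The polyQ35-YFP change was larger for 38 members and the wild-type change for 36, and the median distance between the 2 log2 fold changes of a member was 0.20. The interaction of strain and treatment, fitted with limma over all genes listed for both strains, called 0 members, where 0.00851% of all genes (1 gene) was called in either direction. The count was also 0 by edgeR, by DESeq2 and in the fit with a replicate block. At an unadjusted p below 0.05 there were 2 members (2.70%, beside 3.46% of all genes). Since the rule asked for a fall in both strains, it favoured members with alike responses.

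Those 2 were *F40E10.5*, whose log2 fold change was higher by 1.67 (standard error 0.65) in polyQ35-YFP than in wild-type worms, and *W06D11.2*, higher by 0.56 (standard error 0.26). *W06D11.2* had 91.2, 90.9, 90.8 and 77.1 in polyQ35-YFP *anc-1* RNAi samples, against 143, 120.4, 207 and 117 under EV, and 71.6, 75.5 and 79.1 in wild-type *anc-1* RNAi samples, against 188, 193 and 168 under EV. For 66 members the strains differed by less than 0.5, and WBGene00219443 had a difference of 0.83 with a standard error of 0.85. The largest difference in the other direction was that of *F14B6.3*, with -0.68 (standard error 0.46, polyQ35-YFP minus wild type), which is less than 2 standard errors from 0.

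**Figure D3:**
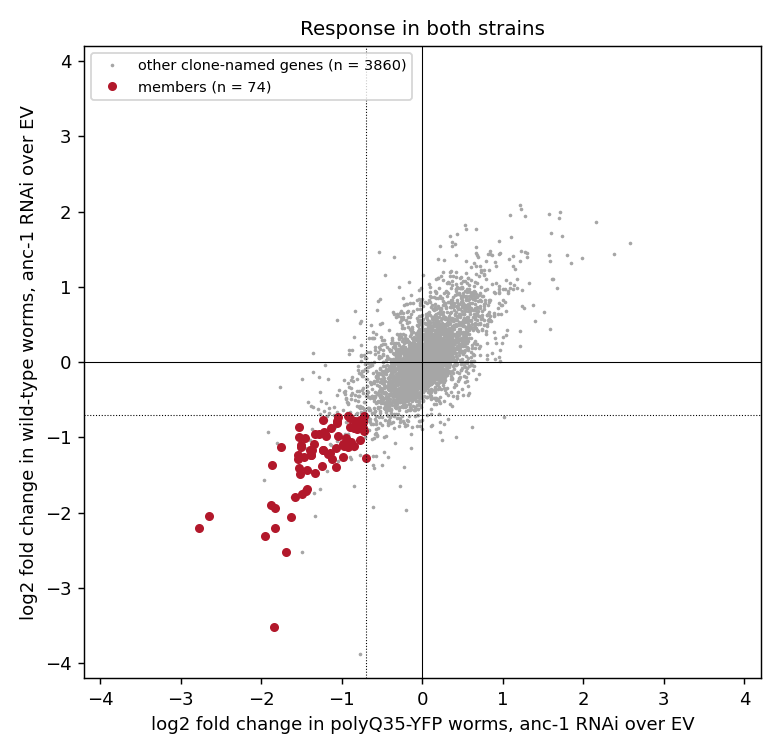
Log2 fold change (*anc-1* RNAi over EV) in polyQ35-YFP worms (x) and wild-type worms (y) for the 74 members and the 3860 other eligible clone-named genes, with the limit of -0.7 dotted. The members fill the lower left corner by construction, and unchosen grey points there overlapped between groups.

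A measure that the choice did not fix was obtained by applying the rule to one strain and reading the other, since the strains shared no sample. Wild-type worms alone picked 181 clone-named genes. In polyQ35-YFP worms 170 of them (93.9%) had a negative log2 fold change, beside 48.1% of the 3934 eligible genes, and their median was -0.78, beside 0.02. Of the 181, 54 (29.8%) were called lower there and 0 higher, beside 1.96% of the eligible genes called lower, and 90 (49.7%) had every *anc-1* RNAi sample below every EV sample, beside 6.69% of the eligible genes. The members made up 51 of the 54 and 74 of the 90. With the replicate number as a block, 89 of the 181 were called lower.

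PolyQ35-YFP worms alone picked 132 genes. In wild-type worms 128 of them (97.0%) had a negative log2 fold change, beside 52.5% of the eligible genes, with a median of -0.88, beside -0.02. Of the 132, 87 (65.9%) were called lower and 0 higher, beside 7.37% of the eligible genes, and 100 (75.8%) had every *anc-1* RNAi sample below every EV sample, beside 17.6% of the eligible genes. The members made up 71 of the 87 and 74 of the 100. The genes picked in wild-type worms that were not members (107) had a median of -0.53 in polyQ35-YFP worms, where 96 were negative. Those picked in polyQ35-YFP worms that were not members (58) had one of -0.58 in wild-type worms, where 54 were negative. The 2 counts of calls depended on single libraries: the first was 90 when polyQ35-YFP EV replicate 4 was dropped, 23 for EV replicate 2, 27 for EV replicate 3, and 15, 22 and 25 for *anc-1* RNAi replicate 1, 2 and 3 in turn, and the second was 52 when wild-type EV replicate 2 was dropped.

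**Figure D4:**
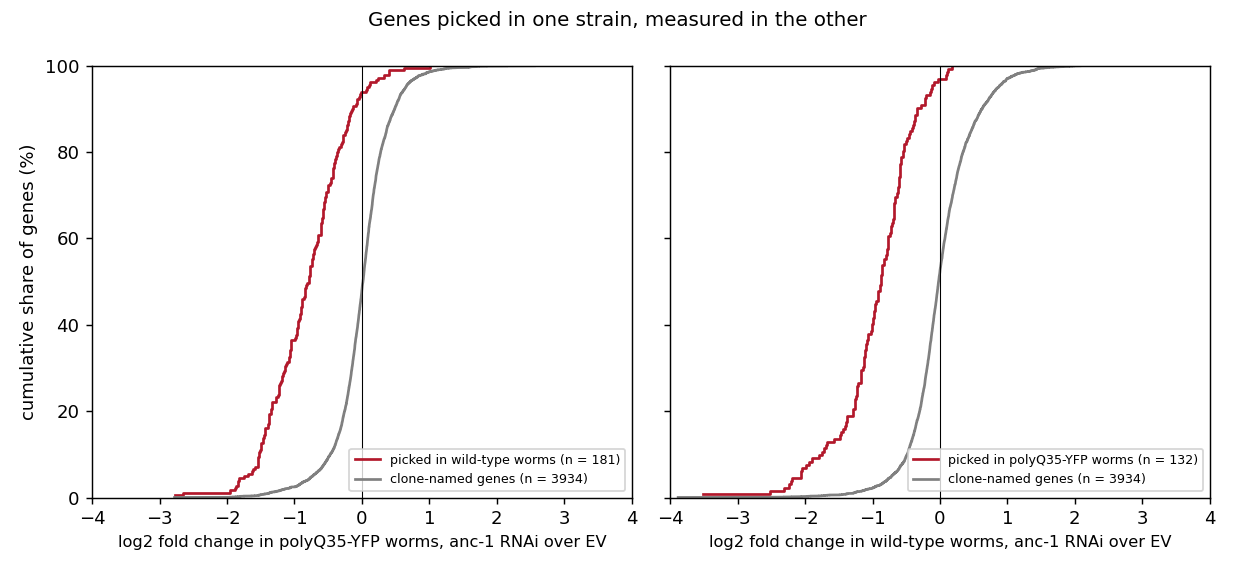
Cumulative share of genes (%) against the log2 fold change (*anc-1* RNAi over EV) in the strain that was not used to pick them, for picked genes (red) and the 3934 eligible clone-named genes (grey). Left, 181 genes picked in wild-type worms and measured in polyQ35-YFP worms (median -0.78). Right, 132 genes picked in polyQ35-YFP worms and measured in wild-type worms (median -0.88). Both picks include the 74 members.

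The members also varied together among replicates of one group. The rule asked for no order of replicates, but it used these same values, so the shares below are not independent of the choice. The rule was met by 64 genes without polyQ35-YFP EV replicate 3 and by 95 without EV replicate 4. In polyQ35-YFP worms EV replicate 3 was the highest EV sample for 52 members (70.3%, beside 28.95% of the eligible genes) and EV replicate 4 was the lowest for 55 (74.3%, beside 39.4%). The median member was 0.45 above its EV mean (log2 scale) in replicate 3 and 0.50 below it in replicate 4. Both held at once for 45 members (60.8%, beside 20.0%), and replicate 3 exceeded replicate 4 by at least 1 on the log2 scale for 36 (48.6%, beside 15.1%). In wild-type worms the spread was smaller, with EV replicate 2 the highest EV sample for 46 members (62.2%, beside 31.7%) and *anc-1* RNAi replicate 3 the highest *anc-1* RNAi sample for 42 (56.8%, beside 32.7%).

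Transcripts that mark the early embryo had the same order of samples by their median as the members in 3 of the 4 groups. The order was not particular to this list. In polyQ35-YFP EV samples the epidermis and neuron lists had it too, with medians of 0.33 and 0.17 in replicate 3 and -0.34 and -0.21 in replicate 4. The epidermis list also had it in polyQ35-YFP *anc-1* RNAi samples and the neuron list in wild-type *anc-1* RNAi samples, but neither in wild-type EV samples. In polyQ35-YFP *anc-1* RNAi samples the orders differed: replicates 1 to 4 had medians of -1.11, -1.32, -1.22 and -1.24 for the early embryo markers and of -1.14, -1.18, -1.11 and -1.28 for the members, relative to the EV mean. Of a list of 20 genes first transcribed in the embryo itself, such as *pes-10*, *vet-1* and the T-box factors *tbx-37* and *tbx-38*, 13 were listed in each strain and none was at 0 throughout. *end-1*, *med-1*, *med-2*, *hlh-25*, *hlh-26*, *hlh-29* and *ceh-51* were not listed. In wild-type worms 9 of the 13 were called lower, beside 6.13% of all genes, and 0 higher. There 10 of the 13 had a negative log2 fold change. The sums were 1338 to 1910.5 in *anc-1* RNAi samples and 3941 to 4595 in EV samples. In polyQ35-YFP worms 8 were called lower, beside 1.47% of all genes, and 0 higher, and 12 of the 13 had a negative log2 fold change. The sums there were 1411 to 1570.1 in *anc-1* RNAi samples and 2579 to 5934 in EV samples. The study had reported lower T-box transcripts under *anc-1* RNAi from these same data. It had also reported lower transcripts of genes tied to reproduction and embryonic processes, so the fall of the embryo list is not independent of that report. The calls of *tbx-11*, *tbx-37* and *tbx-38*, made in both strains, restate the T-box result.

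The highest polyQ35-YFP EV sum was that of replicate 3 and the lowest that of replicate 4, and without replicate 4 the EV sums began at 3349.8. The median early embryo gene was 0.50 above its EV mean in replicate 3 and 0.54 below it in replicate 4. The highest sum among wild-type EV samples was that of replicate 2 and the highest among wild-type *anc-1* RNAi samples that of replicate 3, as for the members. In bulk RNA, fewer embryos and less RNA per embryo cannot be told apart, and the part of embryo number in the members' response was not tested.

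The oocyte and eggshell list was lower under *anc-1* RNAi in wild-type worms, by less than the members, and did not follow them in the polyQ35-YFP strain. Of its genes, 18 of 20 in wild-type worms had a negative log2 fold change, with a median of -0.24, and every *anc-1* RNAi sum lay below every EV sum. In polyQ35-YFP worms 10 of 20 were negative, with a median of -0.01, and the sums overlapped. Of its 20 genes, 5 were called lower in wild-type worms (*oma-1*, *perm-4*, *spn-4*, *pos-1* and *nos-2*) and 2 in polyQ35-YFP worms (*perm-2* and *perm-4*), and 0 higher, and none was at 0. Its sums were 171771 to 207995 in wild-type *anc-1* RNAi samples and 210661 to 256223 in wild-type EV samples, and 187007 to 245483 in polyQ35-YFP *anc-1* RNAi samples and 187132 to 313765 in polyQ35-YFP EV samples. Here polyQ35-YFP EV replicate 4 was the highest sample, with its median gene 0.47 above the EV mean. Of the germline nuclei list 0 of 12 were called lower in either strain and 2 (*glh-1* and *fbf-2*) higher in wild-type worms.

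Body tissue lists went the other way or stayed mixed. Of all genes, 7.50% were called higher in wild-type worms and 0.772% in the polyQ35-YFP strain. Of 8 body wall muscle genes, wild-type worms called 5 higher, polyQ35-YFP worms 3 (*unc-54*, *unc-15* and *unc-27*), and both 0 lower. The *unc-54* promoter drives the transgene of the polyQ35-YFP strain, and a part of transgene transcripts in the *unc-54* value was not tested. Of 8 intestine genes, 4 and 1 were called higher and 0 lower. In the epidermis list *col-19* was called lower and 2 genes higher in wild-type worms, and in the neuron list 1 gene was called higher in wild-type worms, with no calls for either list in polyQ35-YFP worms. The part of these tissues in the members' response was not tested.

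**Figure D5:**
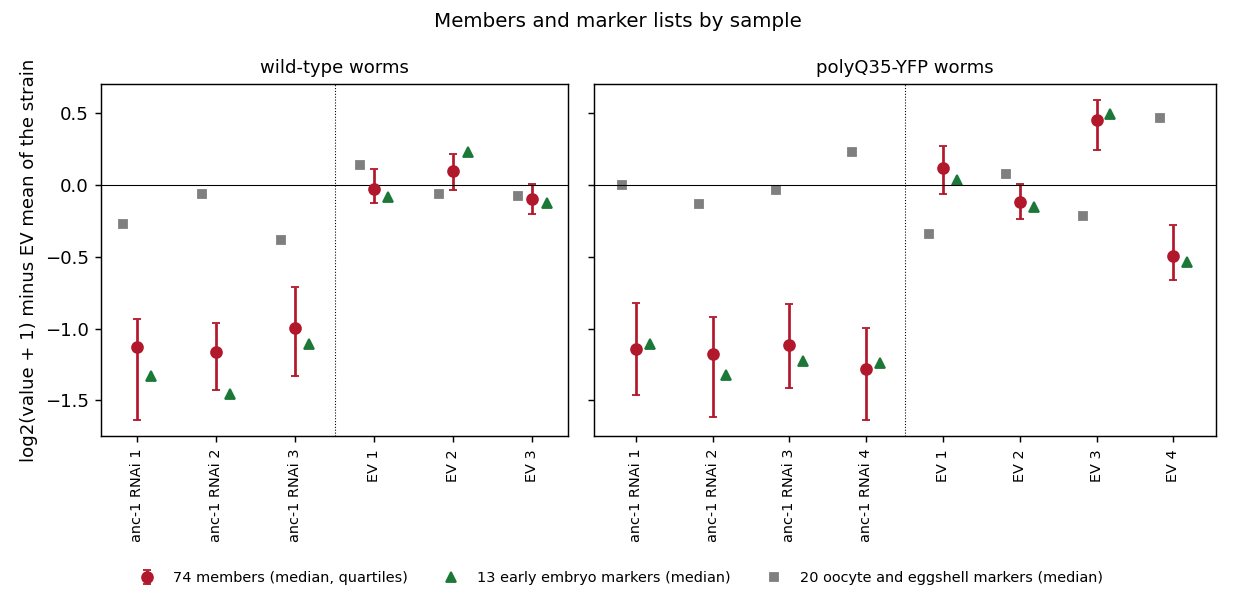
Level of the 74 members (median with quartiles), of 13 early embryo markers (median) and of 20 oocyte and eggshell markers (median) in each sample, as log2(value + 1) minus the EV mean of the strain, *anc-1* RNAi left of EV. Members and early embryo markers are both highest in polyQ35-YFP EV replicate 3 (0.45 and 0.50) and lowest among EV samples in replicate 4 (-0.50 and -0.54), where the oocyte and eggshell markers are highest (0.47).

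Not all members shared this profile. In 11 of them polyQ35-YFP EV replicate 4 exceeded replicate 3: *C39D10.7*, *F48E3.4*, *C02B8.3*, *B0513.4*, *F41C3.5*, *Y16B4A.2*, *F40E10.5*, *F53A9.8*, *B0212.3*, *F54F7.2* and *C17G1.2*. Some were near ties, as replicate 3 was 0.95 times replicate 4 for *B0212.3*, 0.98 for *F54F7.2* and 0.99 for *C17G1.2*, the last 2 on chromosome X. *T04G9.7*, also on X, and *C47D12.5* lay just on the other side, at 1.05 each. The group of 11 was formed after its values were seen. Its median log2 fold changes, -1.14 for wild type and -1.08 for polyQ35-YFP, were near the -1.12 and -1.24 of the other 63, so these genes differed in the order of the control replicates and not visibly in the size of the response.

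Of the 11, 8 lie on chromosome X (72.7%), against 10 of the other 63 (15.9%). Among the eligible clone-named genes the order was the other way round, with 5.57% on X where replicate 4 exceeded replicate 3 and 21.7% where replicate 3 exceeded replicate 4. The 3 steepest genes on X named above (*F40E10.5*, *F54F7.2* and *C02B8.3*) and all 3 protease genes that are not of the ubiquitin or chromosome separation kind (*F48E3.4*, *F41C3.5* and *Y16B4A.2*) were among the 11, as was the chitin-binding *C39D10.7*. *F53A9.8*, annotated to defence against Gram-positive bacteria, had 60.2, 54.8, 40.8 and 56.2 in polyQ35-YFP *anc-1* RNAi samples, against 153, 139, 125 and 137 under EV. Its control values were even where those of most members were not.

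The limits of the list were soft. The members nearest to the limit of 0.7 were *W06D11.2* (log2 fold change -0.70 in polyQ35-YFP worms) and *C45H4.14* (-0.72 for wild type and -0.73 for polyQ35-YFP). The nearest genes outside, *R11G1.7* (-0.69 for wild type and -1.28 for polyQ35-YFP) and *C53B7.3* (-0.68 and -0.83), met every other condition. The number of members was 38 with a fall of at least 1.0 and 114 where the groups were allowed to overlap. It was 95 without polyQ35-YFP EV replicate 4 and 64 without EV replicate 3.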

How the data were processed

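RNA of whole worms was sequenced with CEL-Seq2. The authors trimmed reads with cutadapt 1.12, aligned them to WBcel235 with TopHat2 2.1.1, counted protein-coding genes with HTSeq 0.6.1 without using molecular identifiers, dropped genes whose mean was below 2 counts and normalized with DESeq2 1.22.2. The signal values deposited for each sample are read counts divided by its size factor, 1 table per strain. The deposited log2 fold changes, the Wald score and the p-values are the authors' own comparison and were not used.

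Values came out as whole reads within 0.01 for 100% of values. The main test was limma 3.58.1 (R 4.3.3) on log2(value + 1) with a variance trend, over the 12061 wild-type and 12173 polyQ35-YFP genes, checked on simulated data. The simulation gave all genes the same dispersion and drew each sample on its own. It therefore did not cover shifts that many genes share in a replicate. On recovered reads, edgeR 4.0.16 called 1667 and 249 genes and DESeq2 1.42.0 called 1526 and 601, against 1644 and 273 by limma. Alternatives were other pseudocounts (0.5 and 5), library-size scaling, a mean value of at least 10, no variance trend, these count tests, the replicate block and each sample left out.

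The design text of the series gives every repeat both treatments, and the pairing for the block rests on that statement, since the sample labels carry a number only. Deviations of same-numbered samples correlated at 0.0491, 0.0806 and 0.0740 in wild-type worms and 0.215, 0.0949, 0.122 and 0.570 in polyQ35-YFP worms. Each wild-type sample correlated best with its own number, but polyQ35-YFP *anc-1* RNAi replicate 2 correlated more with EV replicates 1 (0.271) and 3 (0.146) than with its own. The study calls the repeats independent, and p-values measure the spread between them.

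Eligible genes were the 3934 clone-named genes with EV means of at least 10 in both strains and no excluded GO term. GO terms are the deposited ones, and gene models are Ensembl release 115 (WBcel235). Named in the text are the 12 members of largest mean change, the 8 of highest EV level, the 2 of highest EV level in each annotation group, the pairs within 20000 bases, the genes nearest to the limit and *anc-1*. *R04A9.7*, *F53A9.8*, *Y52B11A.20*, *Y16B4A.2*, *Y47G6A.31*, *Y73C8C.8*, the members called in polyQ35-YFP worms alone, those with overlapping genes and those named for the order of EV replicates were singled out after their values were seen. The members, the gene lists and the tests were chosen with earlier results of these data known. No sequence was used here, so promoter motifs were not searched.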

Additional observations from a re-analysis of the deposited data

Results flagged for a closer look

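Among the named members and the 2 genes nearest outside the limit, 64 polyQ35-YFP groups of 4 samples were examined for a sample far from the other 3, by the 95% limit of Dixon's test for the gap as a share of the range. Chance alone marks about 1 group in 20, and 4 were found. The gene WBGene00219443 had 27.7 in EV replicate 3, against at most 8.15 in the other EV samples, and *C45H4.14* had 260.1 in the same replicate, against 211 to 216. *Y116A8C.19* had 2.63 in *anc-1* RNAi replicate 3, against 4.66 to 4.76, and these values rest on 2 to 5 reads. *W06D11.2* had 77.1 in *anc-1* RNAi replicate 4, against 90.8 to 91.2. No named member was called for a difference between the strains.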

How the results depend on the processing

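No alternative turned the direction of any result. The number of genes that met the rule was 38 with a fall of at least 1.0 and 114 where groups could overlap, 64 to 95 with each sample left out, and 93 with the replicate block in its place (each *anc-1* RNAi sample below its same-numbered EV sample). With the replicate block, members called lower stayed at 71 in wild-type worms and were 71 in polyQ35-YFP worms (51 without it), the medians stayed at -1.13 and -1.23, and 0 members differed between strains. Genes picked in wild-type worms and called lower in polyQ35-YFP worms became 89 with the block (54 without it), 82 with DESeq2, 34 with library-size scaling and 4 without the variance trend, and 15 to 90 with each sample left out. Genes picked in polyQ35-YFP worms and called lower in wild-type worms were 89 with the block, 40 without the variance trend and 52 to 114 with each sample left out. Members called lower in wild-type worms were 39 without the variance trend, and 52 to 64 with each sample left out. In polyQ35-YFP worms they were 32 with library-size scaling, 4 without the variance trend and 14 to 71 with each sample left out. A pseudocount of 5 moved the wild-type median to -1.02, past the spread between replicates, as a larger pseudocount shrinks changes of low genes. Causes of the other shifts were not tested. Library-size scaling moved the median of all genes by less than 0.1. Among single genes, leaving out samples kept the side of the threshold in 367 of the 462 cases, lost it in 89 and gained it in 6. Depth limits the members with EV values under about 20, where *anc-1* RNAi values rest on a few reads.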

Other observations

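The rule is not peculiar to genes without a symbol: with the same limits and exclusions it was met by 1.88% of eligible clone-named genes (74 of 3934) and by 1.92% of genes with a symbol (93 of 4841). Its mirror image, with every *anc-1* RNAi sample above every EV sample by at least 0.7 in both strains, was met by 1.09% (43) and 0.806% (39).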
